A study of Glycine max with 20 samples.

Results

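Large-subunit ribosomal proteins of developing soybean seeds were followed as the primary transcript models (the first model of each gene) whose description of the best Arabidopsis match names a ribosomal protein L with a number, a 60S ribosomal protein or a 60S acidic ribosomal protein. The rule, applied to descriptions in any case, found 364 of the 55912 primary models, out of 88515 models in all. By the same descriptions 109 of the 364 were counted as cytosolic, 4 as plastid and 9 as mitochondrial, and the other 242 as of unstated type. A member was counted as cytosolic where its description held 60S or where every protein number in it ended in e. Mixed names such as L16p/L10e were therefore counted as of unstated type. The members fell into 38 families by the first L number in the description, the largest being L18 with 32 members, and they lay on 20 chromosomes plus 1 unplaced scaffold. An L11 methyltransferase-related model met the rule on its name and was kept. Of the 364, 1 had no count in any library.

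The study set ribosome footprints (FP), the mRNA pieces protected by ribosomes, beside matched control RNA sequencing (CT) in dissected soybean seeds of the cultivar Williams grown in a greenhouse. Seeds of 25 to 50 mg fresh weight were at early maturation, those of 100 to 200 mg at mid maturation and those of 300 to 400 mg at late maturation. Cotyledons are called C25, C100 and C300 here after the lower weight, and seed coats are called SC25 and SC100. CT and FP had 2 biological replicates in each tissue and stage, except that 1 FP library each was analysed for C100 and C300. All groups share the cultivar and the growth conditions, and differ in tissue, seed weight and library type.

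A cytosolic ribosome joins a large and a small subunit, and the large subunit holds the site where peptide bonds form, the tunnel through which the new chain leaves and a stalk of acidic proteins that recruits elongation factors. Plant cells also make bacterial-type ribosomes in plastids and mitochondria, whose proteins are coded partly in the nucleus and partly in the organelle's own genome. Filling cotyledons build storage protein and need many ribosomes, while the seed coat is maternal tissue that surrounds and supplies the embryo.

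Library totals lay between 7205928 and 32562521 counts, and 3 counts on a model of 1 kb corresponded to 0.0921 to 0.416 RPKM (reads per kilobase of cDNA, scaled to the library total). The first SC100 CT library stood apart, with 46802 models at 0 against 17451 to 25945 in the other CT libraries, and with 123 of the 364 members at 0 against 6 to 25. The log2 levels of members correlated between CT replicates with r of 0.973 to 0.986 in cotyledons and of 0.83 to 0.85 in seed coats. Counts differed between replicates of every pair by more than sampling noise. Of the markers fixed for the tissues, 5 storage protein models summed to 2038 to 8291 RPKM in cotyledon CT libraries and to 9.37 to 194 RPKM in seed coat CT libraries. The 2 seed coat models summed to 15.7 to 86.7 RPKM in seed coat CT libraries and to at most 0.595 RPKM in cotyledon CT libraries. Among the footprint libraries of C25 the same 2 models summed to 7.66 RPKM in replicate 2 and were at 0 in replicate 1.

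In control RNA, members made up 0.392% and 0.463% of counts at C25, 0.224% and 0.184% at C100, and 0.205% and 0.17% at C300. Seed coats had 0.165% and 0.193% at SC25, and 0.115% and 0.138% at SC100. The share was highest in both C25 libraries and lowest in both SC100 libraries. The median member had 4.08 RPKM at C25, 1.52 at C100, 1.49 at C300, 2.33 at SC25 and 1.35 at SC100, while the median primary model had 0.282, 0.125, 0.153, 0.279 and 0.181 RPKM in the same order. With library totals, C25 was the tissue and stage with the highest mean CT level for 308 of the 364 members, or 84.6%, beside 38.0% of all primary models with a CT count. With TMM scaling over the 18 libraries, the trimmed mean of M-values that sets most models level between libraries, it was highest for 195 members, or 53.6%, beside 20.1% of those primary models, followed by C100 for 83, SC25 for 38, C300 for 37 and SC100 for 11. In these bulk samples, fewer cells of a type and less RNA per cell cannot be told apart.

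Cytosolic members had the highest medians of the 4 types by description, at 13.0 RPKM in C25, 5.81 in C100, 3.95 in C300, 3.97 in SC25 and 2.38 in SC100. The 4 members described as plastid had medians of 1.90, 0.632, 0.433, 1.09 and 0.153 RPKM in the same order. The 9 mitochondrial members had 1.43, 0.553, 0.661, 0.639 and 0.31 RPKM. Organelle members were therefore measured close to the 3-count level in several libraries, and their single-library values carry large counting error.

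A further set of 13 members carried bare names such as ribosomal protein L2, L16, L20, L23.1, L32 and L33, which are names of proteins coded in the soybean plastid genome according to RefSeq's gene table. This set was chosen after its values were seen, and their descriptions state no type. By name and counts alone, reads from the plastid, from the mitochondrion, from nuclear copies of organelle sequence and from other nuclear genes cannot be told apart. The reason is that reads were placed on transcript models with up to 25 places allowed per read. The plastid-named members were short, with a median cDNA length of 315 bases against 984 bases for the other 351. Of the 13, 8 had their highest mean CT level at C300 with library totals, against 2 of the other 351, and with TMM scaling 11 of the 13 did, against 26 of the other 351. Their median CT level was 25.9 RPKM at C25, 12.6 at C100, 23.9 at C300, 17.95 at SC25 and 11.7 at SC100.

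**Figure D1:**
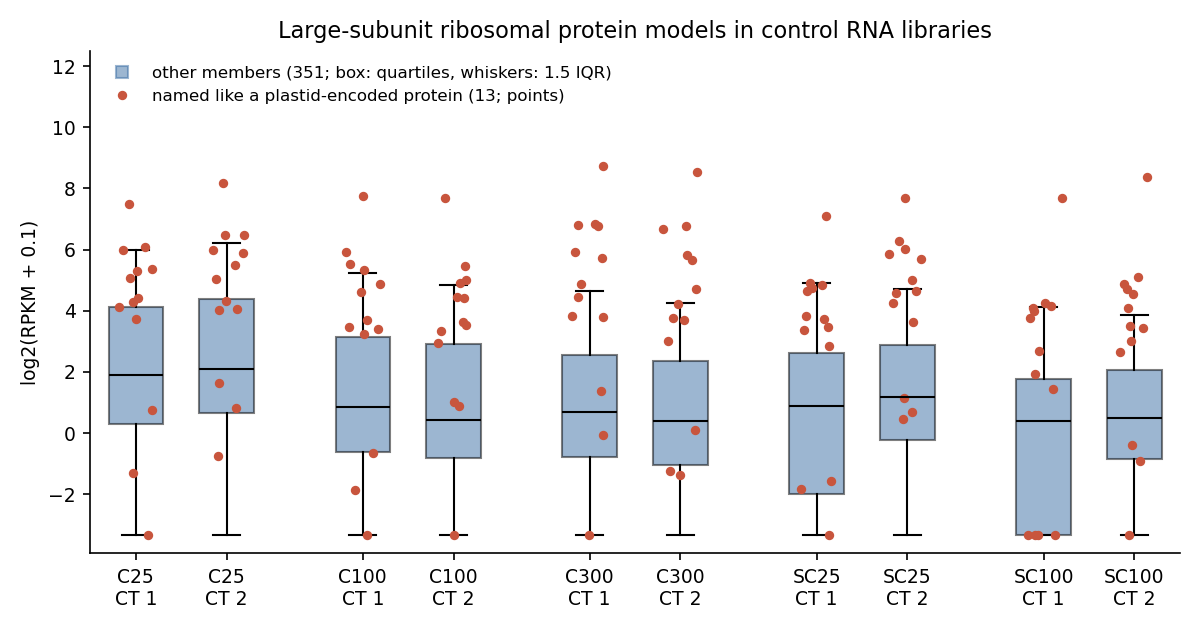
Levels of large-subunit ribosomal protein models in the 10 control RNA libraries, on a log2(RPKM + 0.1) scale, with boxes for the quartiles of 351 members and points for the 13 members named like a plastid-encoded protein. Most points lie above the boxes in every library, and the boxes sit highest in the 2 C25 libraries.

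The most abundant member was Glyma.12G232300.1, described as ribosomal protein L33, a small protein of bacterial-type large subunits. It had 178 and 292 RPKM in C25 CT, 214 and 206 in C100 CT, 429 and 374 in C300 CT, 137 and 206 in SC25 CT, and 206 and 329 in SC100 CT. Both C300 libraries lay above all the other CT libraries. The L2 models Glyma.19G120800.1, Glyma.10G078900.1 and Glyma.20G187300.1, named like the plastid protein beside the peptidyl transferase centre, followed with means over the 5 tissue-stages of 61.7, 58.1 and 45.5 RPKM. By its own sequence comparison, the paper listed Glyma.20G187300.1 among models that lack substantial identity to the organelle genomes. Glyma.12G232100.1, an L20 model named like a plastid protein that binds early to large-subunit rRNA, averaged 41.9 RPKM. Also in the first 10 was Glyma.U009000.1, named L23.1, with 27.2 RPKM.

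The first 10 also held 4 members without such a name. Glyma.02G049300.1 of the L2 family averaged 29.5 RPKM over the tissue-stages, with its highest values of 60.3 and 55.4 RPKM in C25 CT and its lowest of 17.2 and 14.3 RPKM in SC100 CT. Glyma.14G061100.1, described as L10 and carrying the domain pair of the stalk base protein P0, had 63.6 and 73.3 RPKM in C25 CT, and its lowest values were 7.52 and 11.3 RPKM in SC100 CT. Glyma.14G187800.1, an L16p/L10e protein, and Glyma.18G119100.1, an L34e protein of the cytosolic ribosome, averaged 24.6 and 24.4 RPKM. With library totals all 4 had their highest mean at C25. The 6 plastid-named models of the first 10 had theirs at C300, although the C300 and C25 libraries overlapped for Glyma.12G232100.1, Glyma.20G187300.1 and Glyma.U009000.1.

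The first developmental question was how control RNA of these genes changed between early and mid maturation of the cotyledon. At C100 against C25, 7 members were higher and 16 were lower of the 353 with enough counts to test (11 of the 364 fell below 10 counts summed over the 6 libraries), calling a member at a Benjamini-Hochberg adjusted p under 0.05 by the quasi-likelihood test of edgeR. The members' shares were 1.98% higher and 4.53% lower, beside 8.04% higher and 6.52% lower of all 62839 models tested. The members' median log2 fold change was -0.22 and that of all models -0.08. Among the other lists, 5 of 241 small-subunit ribosomal proteins were higher and 8 lower, and 6 of 124 translation factors were higher and 3 lower.

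The largest called decrease among members of at least 5 RPKM was in Glyma.18G010300.1, a mitochondrial L11, which belongs to the factor-binding region of bacterial-type ribosomes. It had 1.02 and 0.757 RPKM in C100 CT against 5.70 and 5.86 RPKM in C25 CT, a log2 fold change of -1.64 ± 0.30 (SE, adjusted p = 0.001). Glyma.03G193100.1, a 60S acidic stalk protein, had 1.89 and 1.16 RPKM in C100 CT against 8.12 and 6.32 RPKM in C25 CT (log2 fold change -1.21 ± 0.24, SE, adjusted p = 0.00167). Glyma.11G099300.1, an L12-A with the C-terminal domain of the bacterial-type stalk, had 1.35 and 1.15 RPKM in C100 CT against 6.25 and 4.45 RPKM in C25 CT (-1.08 ± 0.28, SE, adjusted p = 0.0142). The replicates of the 2 stages did not overlap for any of these 3 genes, which the rule for naming them required.

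Of the 7 members called higher at C100, 4 were L34 models, out of 16 L34 members tested with a median log2 fold change of 0.52, which was -0.55 with library totals. Glyma.09G239000.1, an L34e model, had 9.06 and 8.40 RPKM in C100 CT against 10.2 and 12.6 RPKM in C25 CT. Its log2 fold change was 0.69 ± 0.19 (SE, adjusted p = 0.0173) with TMM scaling, and it was -0.38 with library totals. The number of L34 models called higher was 3 with a replicate block and 5 without the count filter, but 1 with DESeq2 and 1 each without C25 CT replicate 1, C25 CT replicate 2 or C100 CT replicate 1, and 0 without C100 CT replicate 2. The plastid-named L33 model Glyma.12G232300.1 was also called higher (0.95 ± 0.25, SE, adjusted p = 0.0156), with -0.17 under library totals. Library totals moved the median of all models to -1.11, so that scaling called 253 members lower and 0 higher. Here and below, the share of all models called under an alternative setting is not given. The L34 median stayed above that of all models, by 0.53 to 0.68 in the 9 settings. The L34 family was singled out after its calls were seen, and the settings reuse the same libraries, so this range is no independent support. DESeq2 called 4 members, and 3, 5 and 4 were called without C100 CT replicate 1, C100 CT replicate 2 or C25 CT replicate 1.

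Between mid and late maturation the calls were mostly decreases. At C300 against C100, 76 members were lower and 7 higher of 353 (edgeR's quasi-likelihood test, adjusted p under 0.05), against 2.75% lower and 2.9% higher of all models tested. Their median log2 fold change was -0.46, beside 0.02 for all models, and 270 of the 353 lay below 0. By type, 21 of 105 cytosolic members were lower, and the other 55 lower calls and all 7 higher calls were among the 235 tested members of unstated type. Small-subunit proteins gave 35 lower and 3 higher of 241, with a median of -0.42. Translation factors gave 1 lower and 8 higher of 124, with a median of 0.01.

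**Figure D2:**
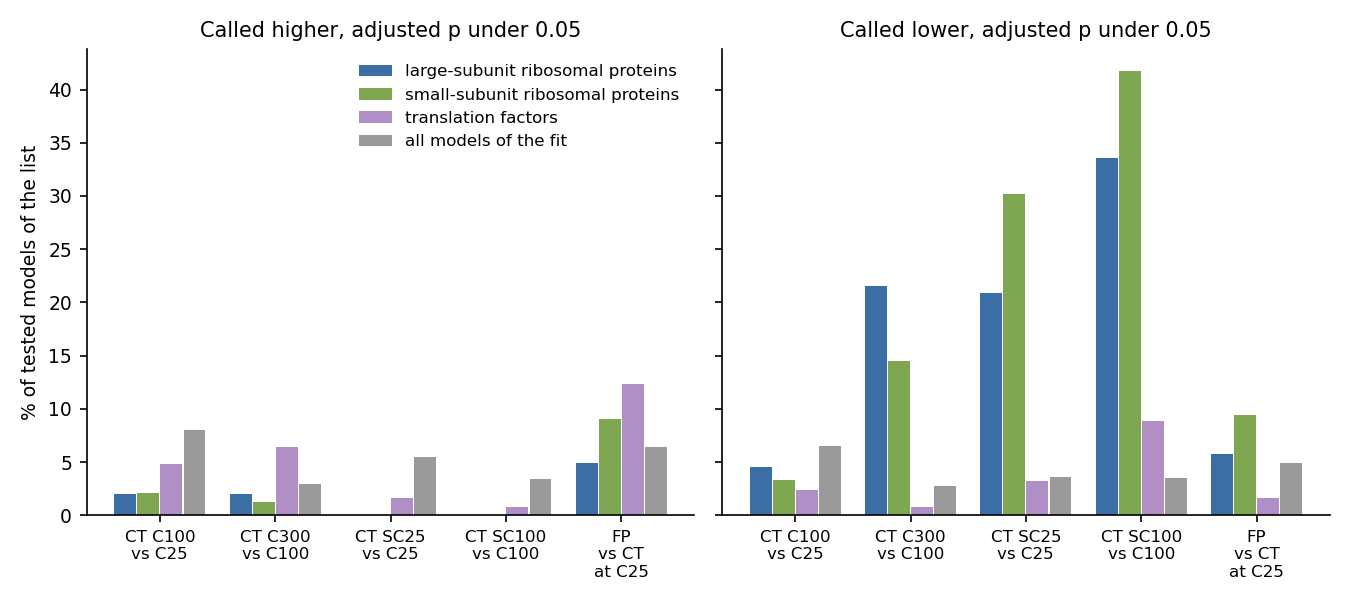
Percentage of tested models called higher (left) and lower (right) at adjusted p under 0.05 in 5 comparisons, as bars for large-subunit ribosomal proteins, small-subunit ribosomal proteins, translation factors and all models. Bars for both ribosomal protein lists rise far above the all-model bar among the lower calls of C300 against C100 and of both seed coat comparisons.

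The acidic stalk proteins, which bind elongation factors at the entrance of the ribosome, had the highest count of lower calls of any family at C300 against C100, with 8 of 12 members called and a median log2 fold change of -0.95. Summed over the 12, they had 281 and 255 RPKM in C25 CT, 112 and 90.0 RPKM in C100 CT, and 62.8 and 46.0 RPKM in C300 CT. The sums of the 3 stages did not overlap. Glyma.08G131500.1 had 4.69 and 4.52 RPKM in C300 CT against 12.1 and 8.34 RPKM in C100 CT (log2 fold change -1.23 ± 0.22, SE, adjusted p = 0.00217). Glyma.06G135800.1 had 3.83 and 3.75 RPKM in C300 CT against 8.94 and 8.98 RPKM in C100 CT (-1.34 ± 0.27, SE, adjusted p = 0.00506).

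The L40 proteins, which are made as fusions with ubiquitin, were lower in 3 of 4 members (median -0.82), and their summed level was 17.98 and 12.2 RPKM in C300 CT against 28.5 and 22.4 RPKM in C100 CT. Of the 9 L32 members 5 were lower, and the L18, L6 and L22 families gave 7 of 28, 6 of 20 and 5 of 11. The L23 family, whose eukaryotic members sit at the tunnel exit, had 4 of 14 members lower. The L10 family, with the stalk base, had 3 of 9, and the L11 family, which mixes cytosolic and organelle types, had 2 of 9. L5, which carries the 5S rRNA into the subunit, had 0 of 7 called in edgeR and in DESeq2 and 6 of 7 lower at an unadjusted p under 0.05, with sums of 86.2 and 68.0 RPKM in C300 CT against 121 and 93.6 RPKM in C100 CT and a median log2 fold change of -0.55. L3, a protein of the peptidyl transferase region, had 0 of 4 called in either tool and 0 at an unadjusted p under 0.05. Its median was -0.11 and lay between -0.32 and 0.06 over the alternatives. The 4 L3 members were low, with sums of 3.21 and 2.87 RPKM in C300 CT against 3.87 and 2.45 RPKM in C100 CT.

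The largest called decrease among members of at least 5 RPKM was in Glyma.12G139400.1, an L30/L7 protein, with 3.58 and 1.90 RPKM in C300 CT against 7.70 and 6.68 RPKM in C100 CT (log2 fold change -1.41 ± 0.34, SE, adjusted p = 0.0168). Its counts were low, at 19 and 6 in the C300 libraries.

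Of the 7 members called higher at C300, 6 were plastid-named. The 12 plastid-named members tested had a median log2 fold change of 0.85, and 0 of them was called lower. Glyma.10G078900.1 (L2) had 112 and 110 RPKM in C300 CT against 46.4 and 32.4 RPKM in C100 CT, a log2 fold change of 1.44 ± 0.20 (SE, adjusted p = 0.000218). Glyma.20G187300.1 (L2) had 108 and 56.6 RPKM in C300 CT against 39.8 and 29.9 RPKM in C100 CT (1.14 ± 0.21, SE, adjusted p = 0.00242), and Glyma.12G232100.1 (L20) had 60.2 and 50.1 RPKM in C300 CT against 29.5 and 21.8 RPKM in C100 CT (1.03 ± 0.20, SE, adjusted p = 0.00441). The stages did not overlap for these genes, which the rule for naming them required. The remaining higher call was Glyma.06G325400.1, an L22p/L17e protein named here after its values were seen, with 2.28 and 2.50 RPKM in C300 CT against 0.782 and 0.878 RPKM in C100 CT and a log2 fold change of 1.45. The L2 family therefore held both directions, with 4 plastid-named members higher and 4 others lower. The summed level of the 56 models named after photosystem reaction centre proteins, fixed as markers of plastid transcripts, was 3298 and 2904 RPKM in C300 CT against 3011 and 2402 RPKM in C100 CT.

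The count of lower calls depended on library and scaling. Without C100 CT replicate 1 there was 1 lower and 1 higher call, and without C100 CT replicate 2 there were 9 lower and 2 higher. DESeq2 called 25 lower and 6 higher. Library totals called 2 lower and 3 higher, with members' median at -0.37 and that of all models at 0.11. The difference between the members' median and that of all models was -0.48, and it stayed between -0.56 and -0.46 in all 9 settings. For the plastid-named members the alternatives gave 1 to 8 higher and 0 lower calls, with medians of 0.70 to 1.00. The acidic stalk had 0 to 11 lower calls with medians of -1.08 to -0.85.

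The next comparison set the seed coat against the cotyledon of seeds of the same weight. At SC25 against C25, 74 of 354 members were lower and 0 higher in control RNA (edgeR's quasi-likelihood test, adjusted p under 0.05), where 3.64% of all models were lower and 5.51% higher. At an unadjusted p under 0.05, 155 members were lower and 5 higher, beside 7084 lower and 8208 higher of 67278 models. The members' median log2 fold change was -1.40, beside -0.18 for all models. Cytosolic members gave 30 of 105 lower and members of unstated type the other 44, so that no call fell on the plastid and mitochondrial members, of which 1 each was lower at an unadjusted p under 0.05. Small-subunit proteins gave 73 of 242 lower and translation factors 4 of 124 lower and 2 higher.

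Glyma.02G253500.1, an L35Ae protein of the cytosolic subunit, had 0.477 and 4.21 RPKM in SC25 CT against 15.1 and 16.0 RPKM in C25 CT (log2 fold change -3.05 ± 0.60, SE, adjusted p = 0.00434). Glyma.05G156100.1, an L32e protein, had 0.759 and 5.20 RPKM in SC25 CT against 15.8 and 24.4 RPKM in C25 CT (-2.99 ± 0.60, SE, adjusted p = 0.00491). The bacterial-type stalk model Glyma.11G099300.1 had 0.205 and 1.46 RPKM in SC25 CT against 6.25 and 4.45 RPKM in C25 CT (-3.01 ± 0.77, SE, adjusted p = 0.022). In each of these genes SC25 CT replicate 1 was far below replicate 2. Both were below both cotyledon libraries, which the rule for naming the genes required. The storage protein models summed to 194 RPKM in SC25 CT replicate 1 and to 9.37 RPKM in replicate 2, and their part in these differences was not tested.

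By family, the lower calls at SC25 included 8 of 29 L7, 7 of 28 L18, 7 of 14 L23, 6 of 20 L6, 5 of 9 L32, 5 of 12 acidic stalk, 4 of 10 L2 and 4 of 16 L34 members. L1, L5, L13, L14 and L35 had 3 each, with 7 members in L5, and 10 other families had 1 or 2. The acidic stalk members summed to 109 and 96.3 RPKM in SC25 CT against 281 and 255 RPKM in C25 CT. The L5 members summed to 92.9 and 73.7 RPKM in SC25 CT against 223 and 272 RPKM in C25 CT. For L40, 0 of 4 members was called at SC25 in edgeR, in DESeq2 or at an unadjusted p under 0.05, with a median of -0.52 that turned to 0.24 without SC25 CT replicate 2 and sums of 46.1 and 36.6 RPKM in SC25 CT against 58.4 and 67.2 RPKM in C25 CT. For the 12 plastid-named members tested, 0 was called lower or higher in edgeR and 2 were lower at an unadjusted p under 0.05, with a median of -0.59. Without C25 CT replicate 1 the count of members called at SC25 was 7, without C25 CT replicate 2 it was 12, and without SC25 CT replicate 1 it was 120, of which 118 were lower. The members' median minus that of all models was -1.22 and lay between -1.33 and -0.74 in 9 settings.

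At SC100 against C100, 119 of 354 members were lower and 0 higher, beside 3.53% lower and 3.37% higher among all models. At an unadjusted p under 0.05, 180 members were lower and 0 higher, beside 7515 lower and 5954 higher of 67278 models. The median log2 fold change was -1.78 for members and -0.32 for all models. Cytosolic members gave 44 of 105 lower and members of unstated type 75. Small-subunit proteins gave 101 of 242 lower, translation factors 11 of 124 lower and 1 higher, and ribosome assembly models 7 of 42 lower.

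Glyma.13G051200.1, an L32e protein, had 1.39 and 4.14 RPKM in SC100 CT against 14.4 and 12.4 RPKM in C100 CT (log2 fold change -3.17 ± 0.52, SE, adjusted p = 0.00126). Glyma.02G253500.1, the L35Ae protein that was also low at SC25, had 1.17 and 2.10 RPKM in SC100 CT against 10.4 and 7.31 RPKM in C100 CT (-3.32 ± 0.63, SE, adjusted p = 0.0039). Glyma.03G215300.1, an L18e/L15 protein, was at 0 in SC100 CT replicate 1, the library with many models at 0, and had 2.54 RPKM in replicate 2, against 7.95 and 6.54 RPKM in C100 CT (-3.43 ± 0.85, SE, adjusted p = 0.0222).

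The families with the most lower calls at SC100 were L18 with 12 of 28, L6 with 8 of 20, L7 with 8 of 29, L2 with 7 of 10, L14 with 7 of 18, L23 with 7 of 14, L32 with 6 of 9 and L34 with 6 of 16. L5, L16, L19, L22 and the acidic stalk had 5 each, out of 7, 8, 13, 11 and 12 members in this order. The acidic stalk summed to 52.0 and 53.2 RPKM in SC100 CT against 112 and 90.0 RPKM in C100 CT. The L5 members summed to 56.2 and 48.6 RPKM in SC100 CT against 121 and 93.6 RPKM in C100 CT. Plastid-named members gave 5 of 12 lower, with a median of -1.82. Without SC100 CT replicate 1 the count was 16, without C100 CT replicate 1 it was 31, without C100 CT replicate 2 it was 42, and with library totals it was 26. The members' median minus that of all models was -1.46 and lay between -1.61 and -1.38 in 9 settings.

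Within seed coats, 0 of 354 members was called at SC100 against SC25 in edgeR, where 0.0208% of all models was called in either direction. At an unadjusted p under 0.05, 82 members were lower and 2 higher, beside 5102 lower and 1710 higher of 67278 models. DESeq2 called 6 members. The median log2 fold change was -0.67 for members and -0.27 for all models. Without the count filter the test called 25 lower and 1 higher, and leaving out single libraries also changed the count. The share of all models called under these settings is not given here, so these counts do not show a change particular to members. The interaction test asks whether the stage difference of the seed coat departs from that of the cotyledon. It called 0 of 354 members in edgeR, beside 0.0981% of all models, and 0 by DESeq2. At an unadjusted p under 0.05, 31 members were lower and 3 higher, beside 2821 lower and 1237 higher of 67278 models. Without the count filter the interaction test called 2 members.

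Footprints were then set against control RNA. Translational efficiency (TE) divided the FP level of a tissue and stage by its CT level, each taken as the mean RPKM of the replicates and raised to at least 0.1 RPKM. The members' median TE was 0.215 at C25, 0.279 at C100, 0.715 at C300, 0.487 at SC25 and 0.451 at SC100. Single pairs of equally numbered libraries gave medians of 0.296 and 0.146 at C25, 0.965 and 0.255 at SC25, and 0.797 and 0.284 at SC100, so the replicate pairs of a seed coat stage differed by more than the medians of SC25 and SC100. Small-subunit proteins had 0.208, 0.266, 0.701, 0.487 and 0.415 in the order C25, C100, C300, SC25 and SC100. All primary models with at least 10 CT RPKM had 0.25, 0.283, 0.508, 0.446 and 0.483 in that order.

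The level of TE depended on the scaling. With TMM factors the members' medians were 1.00, 0.819, 1.12, 0.915 and 1.09, in the same order. At a like CT level, the 147, 70, 36, 56 and 14 members of at least 10 CT RPKM had a median TE 0.826, 0.701, 1.09, 0.909 and 0.492 times that of the primary models of that level with library totals, and 0.837, 0.705, 1.10, 0.763 and 0.496 times with TMM. The ratio was above 1 at C300, on a single FP library, and below 1 in the other 4. Of these members 10, 9, 10, 10 and 7 were plastid-named, a set chosen after its values were seen. Without them the median TE with library totals was 0.211, 0.207, 0.627, 0.428 and 0.302. The primary models of that level had 0.25, 0.283, 0.508, 0.446 and 0.483.

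**Figure D3:**
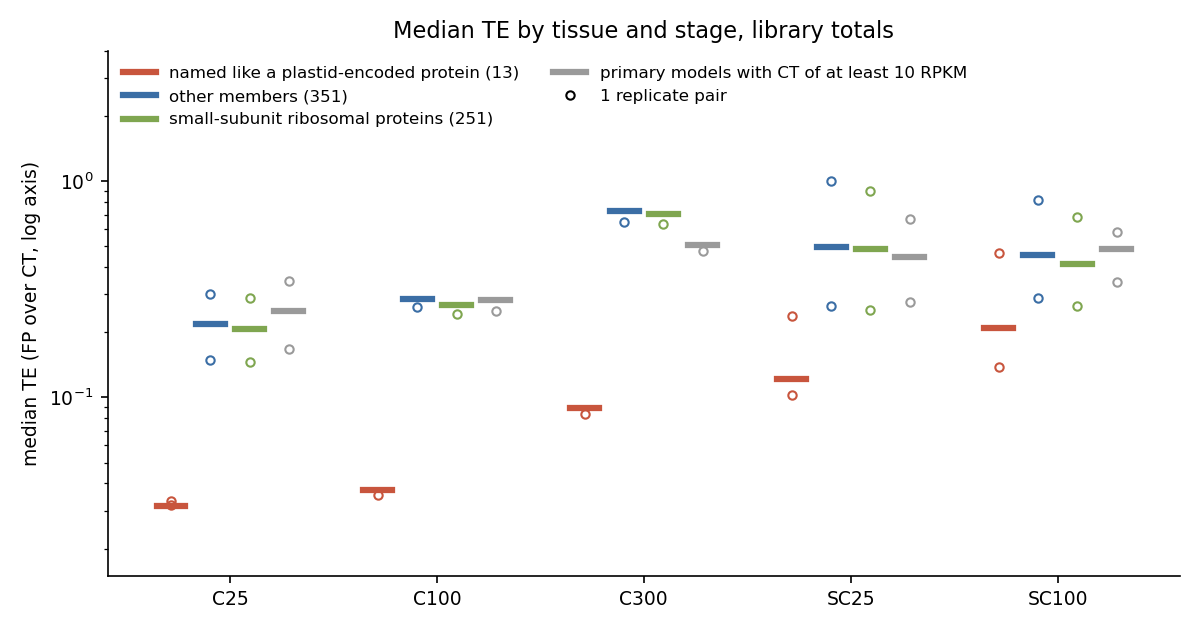
Median TE on a log axis in the 5 tissue-stages, as bars for plastid-named members, other members, small-subunit proteins and primary models of at least 10 CT RPKM, with open circles for single replicate pairs. Plastid-named members lie lowest in every tissue-stage, and the other 3 groups lie close together, with the widest gap between replicate pairs in the seed coats.

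Without a replicate block, no TE difference between stages or tissues was called for any member in edgeR. At C300 against C25 0 of 355 was called, beside 0.00142% of all models, and 0 by DESeq2. At an unadjusted p under 0.05, 7 members were higher and 6 lower, beside 420 higher and 1586 lower of 70288 models. The median log2 difference was 0.14 for members and -0.47 for all models. At C100 against C25 0 of 355 was called, beside 0.0% of all models, and 0 by DESeq2. Unadjusted, 1 member was higher and 4 lower, beside 377 higher and 1395 lower of 70288 models. Both fits rest on 1 FP library at the later stage, which was assumed to vary like the other groups and was never left out. At SC25 against C25 0 of 352 was called, beside 0.0% of all models, and 0 by DESeq2. Unadjusted, 5 members were higher and 0 lower, beside 739 higher and 2318 lower of 65006 models. At SC100 against SC25 0 of 336 was called, beside 0.0% of all models, and 0 by DESeq2. Unadjusted, 2 members were higher and 1 lower, beside 883 higher and 148 lower of 60884 models. Equally numbered FP and CT libraries come from the same ground tissue and were also kept as pairs within each tissue and stage. The share of all models called with these pairs is not given here. With them, 1 member was called at SC25 against C25 and 0 in the other 3 comparisons. It was the plastid-named L20 model Glyma.12G232100.1, with 9.05 and 6.73 RPKM in SC25 FP beside 24.9 and 77.4 RPKM in SC25 CT, against 0.764 and 0.879 RPKM in C25 FP beside 40.7 and 62.8 RPKM in C25 CT (log2 difference 2.18 ± 0.57, SE, adjusted p = 0.0131 by edgeR).

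Within C25, FP over CT was called higher for 17 and lower for 20 of 347 members, beside 6.41% higher and 4.91% lower of all models. The median log2 ratio was 0.10 for members and -0.15 for all models, a difference of 0.24 that lay between -0.06 and 0.50 in 9 settings and fell below 0 in 1 of them. Small-subunit proteins gave 21 higher and 22 lower of 233, and translation factors 15 higher and 2 lower of 122. Of the 20 lower members, 9 were plastid-named, out of 11 tested with a median of -3.07, and 9 to 11 of them were called lower in every alternative setting. The other 336 members gave 17 higher and 11 lower.

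The L20 model Glyma.12G232100.1 had 0.764 and 0.879 RPKM in C25 FP against 40.7 and 62.8 RPKM in C25 CT, a log2 ratio of -3.54 ± 0.31 (SE, adjusted p = 0.000615). The L2 model Glyma.19G120800.1 had 0.401 and 2.03 RPKM in C25 FP against 67.4 and 89.9 RPKM in C25 CT (-3.51 ± 0.44, SE, adjusted p = 0.00168). The second L20 model, Glyma.01G201700.1, had 1 footprint count in all against 173 control counts, a ratio per library total of 0.0054 with an exact 95% interval of 0.000136 to 0.0305 that covers counting error only. Its fitted log2 ratio was -5.04 ± 0.68 (SE, adjusted p = 0.00251). The 56 photosystem reaction centre models summed to 274 and 364 RPKM in C25 FP against 2854 and 3939 RPKM in C25 CT, so a low footprint level beside control RNA was also measured outside the members.

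Members whose FP over CT was called higher than that of other models at C25 included Glyma.10G048600.1, an L4/L1 protein of the exit tunnel wall, with 16.1 and 8.82 RPKM in C25 FP against 24.5 and 29.8 RPKM in C25 CT. Its log2 ratio was 1.23 ± 0.27 (SE, adjusted p = 0.0147) relative to other models, and it was -1.13 with library totals, as the RPKM values show. Glyma.11G099300.1, the L12-A stalk model, had 3.70 and 1.56 RPKM in C25 FP against 6.25 and 4.45 RPKM in C25 CT (1.27 ± 0.33, SE, adjusted p = 0.0313, and -1.04 with library totals). Glyma.05G040900.1, an L18e/L15 protein, had 5.90 and 2.28 RPKM in C25 FP against 9.33 and 8.41 RPKM in C25 CT (1.19 ± 0.32, SE, adjusted p = 0.0317, and -1.13 with library totals).

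Of the 4 members described as plastid, 2 were called higher, both plastid L11 models, Glyma.01G201000.1 with a log2 ratio of 1.501 and Glyma.13G000900.1 with 1.56. With TMM scaling all 4 members described as plastid lay above 0 at C25 and all 11 tested plastid-named members lay below 0, while with library totals the median TE of the 4 was 0.39. By family, higher calls were 5 in L18, 3 in L11, 2 each in L12, L4 and L40, and 1 each in L1, L6 and L10. Lower calls outside the plastid-named set were 3 each in L22 and L31, 1 each in L1, L18 and L34, and 2 in L35, which were Glyma.14G062900.1 at -1.88 and Glyma.02G253500.1 at -1.66. The acidic stalk had 0 of 12 called in edgeR and 1 higher at an unadjusted p under 0.05, with a median of 0.48 and 0 to 10 higher calls over the alternatives.

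**Figure D4:**
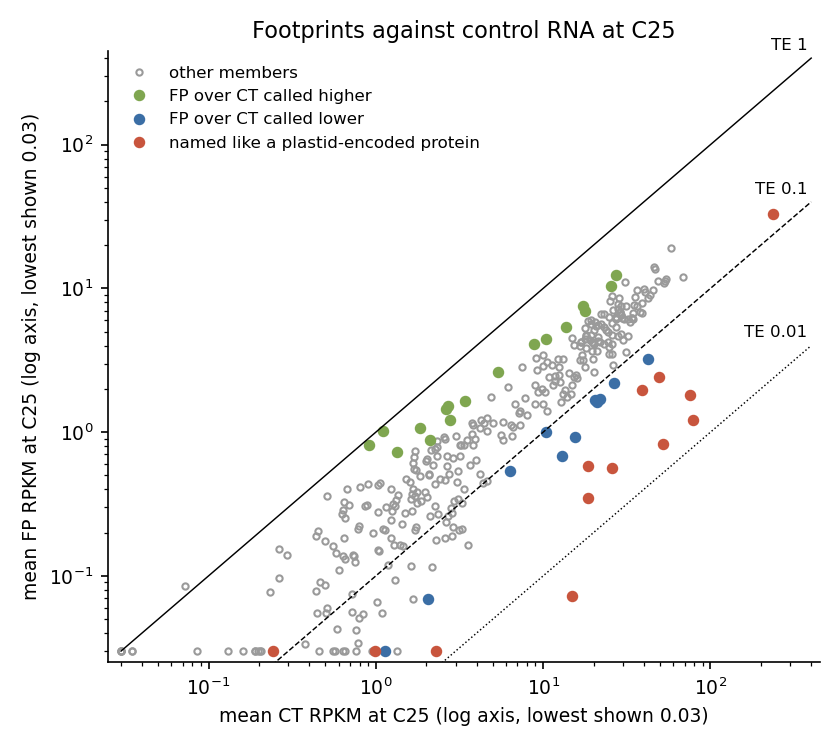
Mean FP RPKM against mean CT RPKM of each member at C25 on log axes, with lines at a TE of 1, 0.1 and 0.01, green points for FP over CT called higher, blue for called lower and red for plastid-named members. Most red points lie below the line of TE 0.1, and the abundant L33 model and a model at the lowest plotted values lie above it.

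The counts at C25 moved with scaling and library. Library totals shifted the median of all models to -2.50 and called 324 members lower and 0 higher. Without C25 FP replicate 2, in which the seed coat models were detected, 61 members were higher and 20 lower, and without C25 FP replicate 1, 12 were higher and 33 lower. Without C25 CT replicate 1 there were 5 higher and 12 lower calls, and without C25 CT replicate 2 there were 1 higher and 11 lower. The part of the seed coat signal in these differences was not tested.

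In seed coats, FP over CT was called for 0 of 314 members at SC25 in edgeR, beside 0.0364% of all models, and for 0 by DESeq2. At an unadjusted p under 0.05, 3 members were higher and 10 lower, beside 227 higher and 2247 lower of 54964 models. At SC100 FP over CT was called for 0 of 281, beside 0.0% of all models, and for 0 by DESeq2. Unadjusted, 1 member was higher and 5 lower, beside 1409 higher and 945 lower of 49157 models. With the replicate pairs as a block 1 member was called at SC100, the L4/L1 model Glyma.03G177400.1, named here after its values were seen, with 0.444 and 3.43 RPKM in SC100 FP against 0.108 and 2.26 RPKM in SC100 CT (log2 ratio 2.61 ± 0.52, SE, adjusted p = 0.000229 by edgeR). Its FP and CT values overlapped between replicates, and its counts in the first pair were 9 in FP and 2 in CT. The share of all models called with that block is not given here. The median log2 ratios were -0.09 at SC25 and 0.12 at SC100 for members. Plastid-named members had medians of -1.68 at SC25, with 7 of 10 lower at an unadjusted p under 0.05, and of -0.98 at SC100, with 2 of 10. Without SC25 CT replicate 2 there were 10 calls at SC25, and at SC100 there were 53 calls without SC100 CT replicate 2, 47 of them higher, and 12 with library totals.

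The plastid-named members had a median TE of 0.0316 at C25, 0.0374 at C100, 0.0893 at C300, 0.121 at SC25 and 0.209 at SC100, against 0.217, 0.286, 0.724, 0.495 and 0.456 for the other 351. Among members with at least 10 CT RPKM, a TE of at most 0.1 was found for 17 of 147 at C25, 11 of 70 at C100, 6 of 36 at C300, 3 of 56 at SC25 and 1 of 14 at SC100. Of these, 9, 8, 6, 3 and 1 were plastid-named. Among all primary models of that CT level it was found for 297 of 1494, 192 of 835, 167 of 784, 68 of 1374 and 52 of 1077 in the same order. No member of that level had a TE above 1 in any tissue and stage with library totals. Of the primary models of that level, 12 of 1494 had one at C25, 36 of 835 at C100, 168 of 784 at C300, 22 of 1374 at SC25 and 24 of 1077 at SC100.

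The 2 L33 models differed within the plastid-named set. Glyma.12G232300.1, a model of 1295 bases, had a TE of 0.139 at C25, 0.201 at C100, 0.979 at C300, 0.616 at SC25 and 0.585 at SC100. Its FP levels were 21.6 and 44.1 RPKM at C25, 42.2 at C100, 393 at C300, 65.9 and 145 at SC25, and 115 and 198 at SC100. Glyma.15G239000.1, a model of 201 bases, had 0.613 and 0.517 RPKM in C25 FP against 19.3 and 32.6 RPKM in C25 CT, for a TE of 0.0218. It had 0 footprint counts in the C300 library and in both SC100 libraries, where 3 counts would give 1.84, 1.28 and 1.29 RPKM. A read could be placed on more than 1 model, and whether reads of other transcripts entered the model of 1295 bases was not tested.

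Only 12 members had at least 10 CT RPKM in every tissue and stage, and their mean TE over the 5 was ranked. The highest were Glyma.02G049300.1 of the L2 family with 0.547, the long L33 model Glyma.12G232300.1 with 0.504, the neighbouring L5 B models Glyma.13G280200.1 and Glyma.13G280300.1 with 0.4 and 0.394, and the L16p/L10e model Glyma.14G187800.1 with 0.387. The L5 B models had near-equal levels in every library, and reads shared between such copies cannot be told apart. For the short L33 model Glyma.15G239000.1, also at the low end, no mean is given, since 3 counts in its libraries at 0 would be 0.17, 0.0964 and 0.0971 of its mean CT level. Of the others the lowest were Glyma.12G232100.1 (L20) with 0.083 and the L2 models Glyma.19G120800.1, Glyma.20G187300.1 and Glyma.10G078900.1 with 0.0914, 0.102 and 0.108. All of these low members were plastid-named, and of the highest only the long L33 model was.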

How the data were processed

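The authors deposited, for each library, a table of whole-number read counts for each of 88515 Wm82.a2 transcript models, made with Bowtie 1 with no mismatch and up to 25 alignments allowed per read after removal of ribosomal RNA, so near-identical models share reads. RPKM was computed from count, cDNA length and library total. Counts were tested with edgeR 4.0.16 (R 4.3.3; TMM, quasi-likelihood test, models with at least 10 counts summed over a fit, Benjamini-Hochberg adjustment over all models of the fit, threshold 0.05). TE differences were interactions of library type with stage or tissue. DESeq2 1.42.0, library totals, no filter, a replicate block and leaving out each library of a group with 2 were alternatives. Tables and figures used Python 3.11.15 with numpy 2.4.6, pandas 2.3.3 and matplotlib 3.10.9. The fits were tested on simulated data. By the study's methods, total RNA and footprints were prepared from 1 ground tissue sample, so equally numbered FP and CT libraries of a tissue and stage were taken as pairs (correlation of their deviations from the group means 0.0749 at C25, 0.241 at SC25 and 0.197 at SC100). The main fits had no block. Numbers were not taken to pair different tissues or stages. Members and gene lists were chosen with earlier results of these data known, and the plastid-named set and the L34 family after their values were seen. Genes were named by rule: the 10 members highest in CT, the 3 largest and 3 smallest called changes per comparison without overlap and with at least 5 CT RPKM, the 5 highest and 5 lowest in mean TE among members of at least 10 CT RPKM throughout, and the stalk, L3, L5, L10, L11, L23 and L40 families. RefSeq's gene table matched 0 model names, so no coordinates, promoters or sequences are given. The second FP replicates of the C100 and C300 cotyledons were not analysed here.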

Additional observations from a re-analysis of the deposited data

How the results depend on the processing

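Counts of members called (adjusted p under 0.05, edgeR unless named) moved most with scaling and with single libraries. The share of all models called is not given for these alternatives, so the counts stand without it. Libraries were left out only from groups with 2, so the single FP libraries of C100 and C300 never were. The TE differences against C25 at these stages were therefore not checked against the library they rest on. With DESeq2 they were 4 for C100 against C25, 31 for C300 against C100 and 6 for SC100 against SC25. With library totals they were 253, with all calls lower, for C100 against C25, 5 for C300 against C100 with more higher than lower calls, 26 for SC100 against C100, 324 for FP against CT at C25 and 12 at SC100. Without the count filter they were 35 for C100 against C25, 26 for SC100 against SC25, 2 for the interaction of stage and tissue and 1 for FP against CT at SC100. Leaving out each library in turn gave 3 to 16 for C100 against C25, 2 to 85 for C300 against C100, 0 to 80 for SC100 against SC25, 7 to 120 for SC25 against C25, 16 to 146 for SC100 against C100, 0 to 10 for the interaction, 12 to 81 for FP against CT at C25, 0 to 10 at SC25 and 0 to 53 at SC100. For TE differences it gave 0 to 11 for SC25 against C25, 0 to 1 for SC100 against SC25, and 0 for C100 and for C300 against C25.

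With equally numbered FP and CT libraries as a replicate block the counts were 44 for FP against CT at C25, with all 37 calls made without the block among them, 0 at SC25 and 1 at SC100. With that block within each tissue and stage, an alternative chosen after seeing the data, the TE difference of SC25 against C25 had 1 call, and the block changed no call of the other TE differences. CT libraries of different groups share only a number (correlation of deviations -0.192 to 0.0314). With the number as a block there, the counts were 20 for C100 against C25, 82 for C300 against C100, 95 for SC25 against C25, 6 for SC100 against SC25, within 1.5 times the count without the block for SC100 against C100, and 0 for the interaction and, with the number as 1 term across stages, for the TE differences.

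Median TE with TMM factors was 1.00 at C25, 0.819 at C100, 1.12 at C300 and 1.09 at SC100. Without the 1% most abundant models it was 0.93, 0.771, 1.21, 1.06 and 1.00 at C25, C100, C300, SC25 and SC100. Among members of at least 10 CT RPKM it was 0.198 at C100 and 0.553 at C300. Leaving out the plastid-named members, an alternative chosen after seeing the data, left the median TE of the members within 1 SD. That SD, taken over replicate medians, was 0.502 at SC25 and 0.363 at SC100, and the set held 13 of the 364 members. At C100 and C300 the SD reflected the CT libraries only, since 1 FP library each was analysed. With so few members left out and so wide an SD, the outcome could hardly differ, so it shows no robustness. Among members of at least 10 CT RPKM, leaving them out moved the median from 0.237 to 0.302 at SC100 and from 0.553 to 0.627 at C300. Under library totals the log2 change turned to -0.17 for Glyma.12G232300.1 and -0.38 for Glyma.09G239000.1 at C100 against C25, and for FP against CT at C25 to -1.04 for Glyma.11G099300.1, -1.13 for Glyma.10G048600.1 and -1.13 for Glyma.05G040900.1. Of the named results, 58 of 92 kept their call when a library was left out and 78 of 92 under the other settings. Footprints per kb of coding sequence and leaving out members by organelle-encoded Arabidopsis match were not run, since coding lengths and Arabidopsis identifiers were not used here. At this depth 83 members fell below the count filter for FP against CT at SC100. The causes of these changes were not tested.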
